A study of Mus musculus with 10 samples.

Results

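Pdgfra, Olig1, Olig2, Cnp and Cldn11, genes of the oligodendrocyte lineage, and Pecam1, Flt1 and Kdr, genes of endothelial cells, were examined in chromatin data from sorted mouse microglia, the resident macrophages of the brain. They are 8 of 20696 autosomal protein-coding genes. They were chosen by H3K4me3 peaks within 1 kb of a transcription start site (TSS) in both replicates and by interactions whose 5 kb bin held a TSS, so these values are a description of the genes and were not tested. The data went against that choice for several of them. Of the 8 genes, 7 had such a peak in both replicates and only 4 (Pdgfra, Pecam1, Cldn11 and Cnp) had an interaction. Olig2, Flt1 and Kdr had H3K4me3 in both replicates and no interaction, and Olig1 had a peak in replicate 2 alone and no interaction.

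The cells came from the brains of adult male wild-type mice, with the strain given as C57/Bl6, and carried CD45, CD11b and CX3CR1 at the surface, with a low CD45 gate in the study's methods. There were 2 H3K4me3 ChIP-seq libraries, 2 input libraries and 2 PLAC-seq libraries of this genotype, among 10 samples in all. The other 4 samples, Hi-C of wild-type microglia and of microglia lacking the Sall1 enhancer, were not analysed here, so no genotype is compared. The ChIP-seq libraries had 12.8 and 13.4 M tags and 27845 and 26574 peaks. Both PLAC-seq libraries had been combined in 1 list of 26689 interactions, which therefore have no replicate error and an unknown depth per library. The sources used here do not say whether the libraries came from separate animals, so the spread between replicates may be technical. All 12 genes of the microglia list were marked in both replicates, beside 59.4% of all autosomal protein-coding genes. Their median was 197.2 and their range 123.4 to 301.2 tags per 10 M, with a median of 220.4 over all marked genes. The list was chosen with earlier results known, so this does not test the label of the cells.

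H3K4me3, the trimethylation of lysine 4 of histone H3, lies at the start sites of active genes and, at a lower level, at CpG-rich start sites of genes that are held silent. PLAC-seq joins DNA ends that lie close together in the nucleus and enriches the joined fragments with an antibody, here against H3K4me3, so that contacts of marked start sites are favored. PDGFRα is the receptor for platelet-derived growth factor on oligodendrocyte precursors, and OLIG1 and OLIG2 are the basic helix-loop-helix factors that specify that lineage. CNP, a cyclic nucleotide phosphodiesterase, and claudin 11, a tight junction protein, are parts of myelin. VEGFR1 (Flt1) and VEGFR2 (Kdr) are receptors for vascular endothelial growth factor, and PECAM1 is an adhesion molecule of endothelial junctions that platelets and several leukocytes also carry. In these bulk libraries, a mark on every microglial genome at a low level and a mark on the genomes of few cells cannot be told apart.

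Promoter sequence did not itself enter the choice of the genes, but the H3K4me3 that did goes with CpG content over all windows. RefSeq promoter windows of 300 bases, 250 before and 50 after the start on build GRCm38.p6, were matched for 6 of the 8 genes. Olig1 and Pecam1 are named only. The windows of the most strongly marked genes, Kdr and Cnp, are set beside those of Olig2 and Cldn11, which were weakly marked, and of Pdgfra, whose peaks lay elsewhere. Each is written 5′ to 3′ on the strand of the gene, with every CpG in capitals. The windows are Kdr at chr5:75978406-75978705 on the minus strand, Cnp at chr11:100574689-100574988, Olig2 at chr16:91225300-91225599, Cldn11 at chr3:31149670-31149969 and Pdgfra at chr5:75152001-75152300, the last 4 on the plus strand.
Kdr: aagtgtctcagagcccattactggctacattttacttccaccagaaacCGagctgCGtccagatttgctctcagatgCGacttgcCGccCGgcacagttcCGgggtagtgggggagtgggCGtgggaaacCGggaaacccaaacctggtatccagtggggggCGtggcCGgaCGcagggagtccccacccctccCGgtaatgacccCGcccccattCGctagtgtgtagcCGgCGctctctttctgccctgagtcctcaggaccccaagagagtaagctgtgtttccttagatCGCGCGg
Cnp: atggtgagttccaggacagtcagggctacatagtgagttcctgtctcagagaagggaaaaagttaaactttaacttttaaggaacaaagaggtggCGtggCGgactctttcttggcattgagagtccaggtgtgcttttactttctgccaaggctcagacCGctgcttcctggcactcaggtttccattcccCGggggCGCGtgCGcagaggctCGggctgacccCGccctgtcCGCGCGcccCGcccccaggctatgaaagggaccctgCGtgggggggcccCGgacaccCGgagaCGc
Olig2: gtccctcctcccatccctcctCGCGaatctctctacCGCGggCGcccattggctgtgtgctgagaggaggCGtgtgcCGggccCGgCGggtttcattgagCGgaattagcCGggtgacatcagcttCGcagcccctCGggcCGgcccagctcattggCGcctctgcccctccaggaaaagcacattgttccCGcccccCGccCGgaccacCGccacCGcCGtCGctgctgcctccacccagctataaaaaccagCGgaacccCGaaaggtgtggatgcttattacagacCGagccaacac
Cldn11: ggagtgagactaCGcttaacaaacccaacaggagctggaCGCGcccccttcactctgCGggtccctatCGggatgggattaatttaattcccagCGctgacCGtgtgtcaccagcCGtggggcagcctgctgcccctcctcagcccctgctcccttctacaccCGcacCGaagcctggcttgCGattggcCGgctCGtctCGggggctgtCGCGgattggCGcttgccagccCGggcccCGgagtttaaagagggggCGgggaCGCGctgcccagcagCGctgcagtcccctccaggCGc
Pdgfra: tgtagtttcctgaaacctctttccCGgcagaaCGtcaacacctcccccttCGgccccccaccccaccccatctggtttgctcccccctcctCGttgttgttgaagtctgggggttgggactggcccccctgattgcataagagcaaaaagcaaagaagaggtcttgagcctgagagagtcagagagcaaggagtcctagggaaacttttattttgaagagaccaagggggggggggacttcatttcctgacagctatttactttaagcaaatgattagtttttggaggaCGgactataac

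The Kdr window held 19 CpGs and the Cnp window 17, while the weakly marked Olig2 and Cldn11 windows held 25 and 24. Flt1, whose window is not printed, held the most with 29. Pdgfra held 5. The median was 21 over 12357 windows of marked genes and 3 over 6810 windows of the other autosomal protein-coding genes. Since the genes were chosen by H3K4me3, the windows of marked genes are the like comparison. The 5 windows other than Pdgfra held more CpGs than 35.3% to 73.3% of these, and Pdgfra more than 7.87%. The 5 held more than 90.6% to 96.9% of the windows of unmarked genes, whether the H3K4me3 value was above 100 or near 10. The Pdgfra window held more than 60.1% of the windows of unmarked genes. A place above unmarked genes goes with the choice of marked genes and is not read as a result. The plot of CpG count against H3K4me3 shows Olig2 and Cldn11 toward the lower edge of the cloud, at a CpG count common among marked genes.

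**Figure D1:**
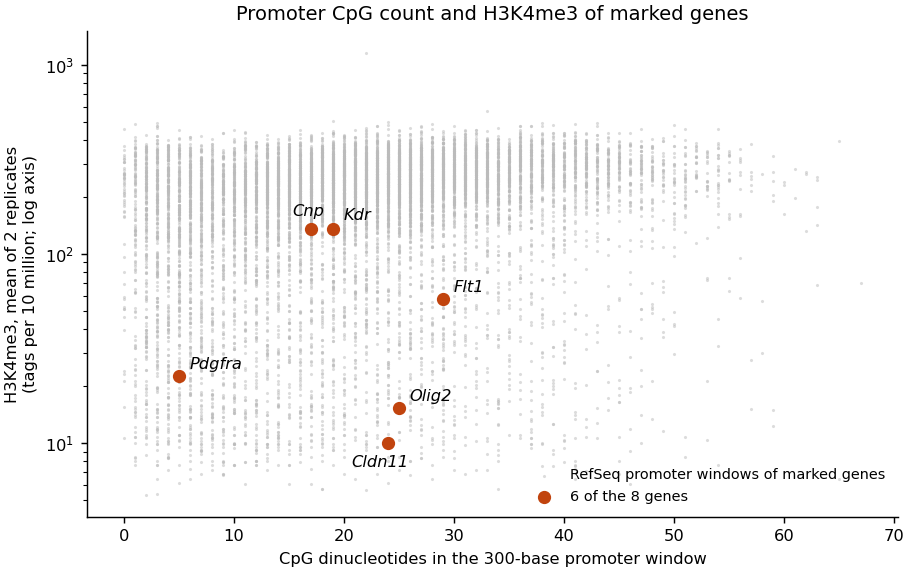
Number of CpG dinucleotides in the RefSeq promoter window (x axis, count per 300 bases) against the mean H3K4me3 value of 2 replicates (y axis, tags per 10 M, log axis). Grey points are the 12357 windows of marked genes and red points are 6 of the 8 genes, of which Cnp and Kdr lie near 135 tags per 10 M and Cldn11 and Olig2, with more CpGs, near 10 and 15.

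Short motifs were searched on both strands of these windows, and a match describes letters only. GGGCGG, the GC box, which itself contains a CpG, was present in 5 of the 6 windows, all except Pdgfra, as in 35.7% of all windows and 64.1% of the windows of marked genes. TATAAA, the TATA box, was present in the Flt1 and Olig2 windows and in 13.6% of all windows. GAGGAAGT, the core bound by the myeloid factor PU.1, was in none of the 6 windows and in 3.2% of all windows. CAGCTG, an E-box, was in none of the 6 and in 16.3% of all.

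Over all autosomal protein-coding genes, 59.4% passed the peak criterion in both replicates and 2.89% in 1 replicate only. Since H3K4me3 chose the 8 genes, nothing is read from 7 of 8 against that share. What the values add is their size. The value of a gene is that of its tallest peak within 1 kb of a TSS, in tags per 10 M mapped tags, and the median of 12291 marked genes was 220.4. All 7 marked genes lay below it, 4 of them under 30 and 2 of them above 100.

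Kdr and Cnp carried the highest values. Kdr had 153.5 in replicate 1 and 116.4 in replicate 2 (134.9 ± 26.2, SD, n = 2), from 197 and 156 tags, in peaks over its UTR within 73 bp of the TSS. Cnp had 148.0 and 123.1 (135.6 ± 17.6), from 190 and 165 tags, over its UTR and coding sequence. Of all marked genes, 26.5% lay below Kdr and 26.6% below Cnp, and the fold over input was 161.1 and 74.4 at Kdr and 44.4 and 78.7 at Cnp. The replicates of Kdr differed by more than counting error, with a ratio of replicate 2 to replicate 1 of 0.758 (exact 95% interval 0.611 to 0.940), while the interval for Cnp, 0.671 to 1.03, included 1. These and all later intervals cover counting error only.

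Flt1 lay between these 2 genes and the rest. It had 48.3 in replicate 1 and 67.1 in replicate 2 (57.7 ± 13.3), from 62 and 90 tags over its UTR and coding sequence, and 15.0% of marked genes lay below it. Its ratio of replicate 2 to replicate 1 was 1.39 (0.994 to 1.95). Flt4, the VEGF receptor of lymphatic endothelium, had 25.7 and 37.3, so that the replicate values of the 3 receptor genes did not overlap.

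The other marked genes had values at the low end of the list. Pdgfra had 24.9 and 20.1 (22.5 ± 3.39), from 32 and 27 tags, and 7.14% of marked genes lay below it. The tallest peak lay over a UTR in replicate 1 and in an intron in replicate 2. At the UTR site replicate 2 had 19.4. Olig2 had 15.6 and 14.9 (15.3 ± 0.495), from 20 tags in each replicate, with 4.48% of marked genes below it. These were different peaks, upstream of the TSS in replicate 1 and in an intron past it in replicate 2, and at the upstream site replicate 2 had 13.4. Cldn11 had 11.7 and 8.21 (9.96 ± 2.47), from 15 and 11 tags, with 1.48% below it, and its fold over input was 6.13 in replicate 1 and 31.5 in replicate 2. With so few tags the intervals of the replicate ratios were wide. They ran from 0.465 to 1.39 for Pdgfra, from 0.488 to 1.87 for Olig2 and from 0.292 to 1.64 for Cldn11. For Pdgfra and Olig2 the ratio compares tallest peaks that lay at different sites. Among marked genes with values under 30 the SD of the log2 replicate ratio was 0.66, against 0.19 among those of 200 or more.

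Olig1 and Pecam1 sat on either side of the criterion of a peak in both replicates. Olig1 had 10.4 in replicate 2, from 14 tags over its UTR and coding sequence, whereas the nearest peak of replicate 1 was 44390 bp away, at Olig2. The exact 95% interval of the replicate 2 value ran from 5.69 to 17.5. Pecam1 had 15.6 in replicate 1 and 11.2 in replicate 2, but at different TSSs 35.2 kb apart. The replicate 1 peak lay 202 bp from the main TSS, where 4 of its 5 annotated starts lie together, over its UTR and coding sequence (chr11:106714873-106715057), where the nearest peak of replicate 2 was 27198 bp away. The replicate 2 peak lay 667 bp from the upstream TSS of Pecam1, inside the coding sequence of Milr1 (chr11:106751295-106751483), and the nearest peak of replicate 1 was 1913 bp from that TSS. At the same TSS in both replicates, 6 of the 8 genes were marked, a count added after the data were seen.

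**Figure D2:**
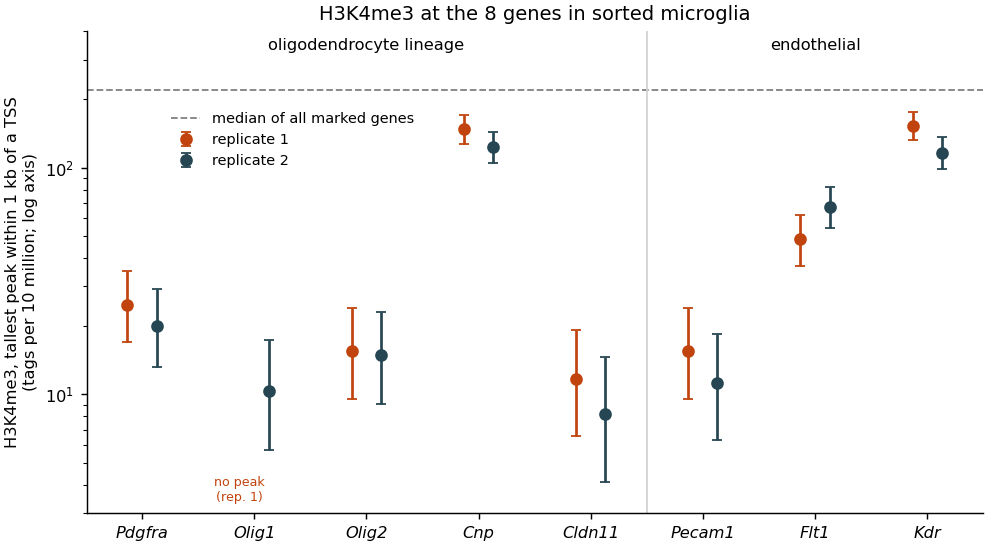
H3K4me3 value of the tallest peak within 1 kb of a TSS (y axis, tags per 10 M, log axis) for the 8 genes (x axis) in replicate 1 (red) and replicate 2 (dark blue), with exact Poisson 95% intervals of the tag count. Cnp and Kdr lie between 116.4 and 153.5, Flt1 at 48.3 and 67.1, and the others at 24.9 or less, all below the median of marked genes (dashed line, 220.4).

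The Pdgfra peaks lay away from the first annotated start of the gene. Its annotated transcripts start at 4 positions, and the tallest peaks lay beside the last of them, chr5:75155899, which is 2.96 kb from the TSS before it and 3.61 kb from the first. Near that TSS were peaks of 24.9 and 17.9 in replicate 1 and of 20.1 and 19.4 in replicate 2, over a UTR and an intron. Within 1 kb of the first 3 TSSs, replicate 1 had 1 peak of 6.23, from 8 tags, and replicate 2 had none. The 5 kb bin of these TSSs also held a peak of 9.35 in replicate 1 and of 10.4 in replicate 2, both farther than 1 kb from any TSS, so that this bin counted as marked in both replicates. The RefSeq window printed for Pdgfra, with its 5 CpGs, belongs to this first start, whereas the peaks at the last TSS covered 7 and 14 CpGs in 185 bases of replicate 1 and 12 and 14 CpGs in 189 bases of replicate 2. The peak of 6.23 in replicate 1, past the third start, covered 20 CpGs in 185 bases. The tallest peaks of Kdr covered 19 and 22 CpGs, those of Cnp 21 and 18, and those of Pecam1 2 and 5.

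Interactions were listed for 37.8% of marked genes and for 24.7% of all autosomal protein-coding genes. Of the 8 genes, 4 had an interaction, a count that the choice of the genes used. These 4 took part in 33 distinct interactions with 531 read pairs, of which Pdgfra had 14, Pecam1 11, Cldn11 5 and Cnp 3. At a false discovery rate of 0.0001 or lower the counts were 8 for Pdgfra, 4 for Pecam1, 2 for Cldn11 and 3 for Cnp. With at least 20 read pairs they were 3, 2, 0 and 2 in the same order. Over all marked genes the share with an interaction was higher at higher H3K4me3, at 23.3% under 30, 30.3% from 30 to 100, 37.3% from 100 to 200 and 41.8% from 200. Within the 8 genes Kdr, with 153.5 and 116.4, had none and Pdgfra, with 24.9 and 20.1, had 14. Among the 1138 marked genes with values under 30, 265 had an interaction. Interactions entered the choice of the genes, so the count of Pdgfra is not ranked among these. Its 14 interactions came from 2 TSS bins, 8 from 1 bin and 6 from the other. The strength of an interaction is given below as read pairs observed over the number that the caller expected at that distance, and the median over the whole list was 4.03.

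All 14 interactions of Pdgfra reached upstream, away from its gene body. They formed 3 clusters of neighboring bins, and 10 of them were in the cluster between the Pdgfra bins and chr5:74925001-74965000, 190 to 225 kb away. The strongest of the 33 interactions belonged to it, with 34 read pairs against 2.75 expected (12.4-fold, false discovery rate 6.739e-22) between the bin of the first 3 TSSs and the bin at chr5:74940001-74945000. The next bin, chr5:74945001-74950000, gave 24 read pairs (9.18-fold) with the bin of the first TSSs and 19 (8.31-fold) with the bin of the last TSS. Both Pdgfra bins therefore reached the same stretch, which is intergenic or within the noncoding gene Gm6116 and holds no protein-coding TSS. In it, replicate 1 had a peak of 8.57 in the bin of the strongest interaction and replicate 2 had none there.

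The remaining interactions of Pdgfra were longer and rested on fewer reads. At 515 and 520 kb, 2 interactions with 8 read pairs each (5.57-fold and 5.20-fold) ended in an intron of Lnx1, the gene of a ubiquitin ligase. At 620 kb, 1 interaction of 12 read pairs (5.95-fold) ended in the bin of the TSS of Scfd2 and another of 11 read pairs (6.60-fold) in that of Fip1l1, the gene of a factor of mRNA 3′ end processing. Scfd2 and Fip1l1 are the other protein-coding genes to which these contacts could belong, and their bins had H3K4me3 of 329.5 and 348.3 and of 254.8 and 273.0. No other protein-coding TSS lay in the Pdgfra bins, which also hold the TSSs of the noncoding genes Gm42802 and Gm42803, the first of them antisense to Pdgfra. Between Pdgfra and these partners, the nearest marked gene was Chic2, 107.5 kb upstream with 380.2 and 358.8, and it had no interaction. Gsx2, a homeobox gene 76.7 kb upstream, and Kit, the stem cell factor receptor gene 419 kb downstream, had neither a mark nor an interaction.

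Pecam1 had 11 interactions, all toward its gene body or beyond its 3′ end, and 7 of them could belong to another gene. These 7 came from the bin of its upstream TSS (chr11:106750001-106755000), which also holds the TSS of Milr1, the gene of an immunoglobulin-like receptor of myeloid cells, 0.598 kb away on the other strand. The strongest had 22 read pairs against 3.15 expected (6.98-fold, false discovery rate 1.084e-09) at 110 kb. In that bin, replicate 1 had 1 peak of 10.1 and replicate 2 had peaks of 15.7 and 11.2, the 2 of replicate 2 within 1 kb of the Milr1 TSS. The 2 genes share these interactions, and the list cannot assign them to either. Of all autosomal genes with an interaction, 20.2% shared a TSS bin with another protein-coding gene.

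The other 4 interactions of Pecam1 came from the bin of its main TSS, chr11:106715001-106720000, and were weaker, at 2.38-fold to 3.89-fold, below the median of the list. The shortest, at 25 kb, had 24 read pairs against 10.1 expected and ended in the coding sequence of Pecam1. Without the bin shared with Milr1, a count added after the data were seen, Pecam1 kept these 4 alone. Both sets ended in part in the same bins, chr11:106635001-106645000, in intergenic sequence past the 3′ end of the gene. The neighbors Tex2, 102.3 kb away, and Polg2, 28.9 kb away, had values of 299.9 and 366.2 and of 246.2 and 253.6.

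Cldn11 had 5 interactions in opposite directions. Upstream, 3 interactions at 90 to 110 kb belonged to a cluster of 18 in which 15 did not involve its bin. The most pairs among the 3, 19 (3.81-fold), joined Cldn11 to an intergenic bin at chr3:31055001-31060000 with H3K4me3 of 110.6 and 132.0, which had 8 other interactions, with Mynn, a zinc finger gene, among the genes at their other ends. The same bin gave 49 read pairs (10.97-fold) with a bin 10 kb before the Cldn11 TSS bin and 21 (6.14-fold) with the bin 5 kb before it. The contact of this bin was thus stronger with 2 neighbors of the TSS bin, which hold no Cldn11 TSS, than with the TSS bin itself. The other 2 upstream partners, in the coding sequence of Prkci, the gene of an atypical protein kinase C, with the TSS of Mir7008 in the farther bin, gave 13 and 11 read pairs (4.34-fold and 3.67-fold).

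Downstream, Cldn11 had 2 interactions, at 455 and 460 kb, with intergenic bins that had no other interaction, 12 read pairs (8.30-fold) and 7 (5.75-fold), the last of them the lowest number of pairs in the whole list. Skil, the gene of a repressor of SMAD signaling, was the nearest marked neighbor, 53.1 kb upstream with 522.0 and 473.7, and no interaction ended in its TSS bins. No interaction of Cldn11 had another protein-coding TSS in either bin.

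Cnp had 3 interactions, all downstream at 120, 125 and 130 kb and in 1 cluster. They had 22 read pairs (5.15-fold), 19 (4.27-fold) and 25 (6.18-fold, false discovery rate 5.635e-10). All 3 ended in neighboring bins over Dhx58, the gene of LGP2, a sensor of viral RNA, and the strongest ended in the bin of its TSS, which had H3K4me3 of 48.3 and 55.9. Of these 3 bins, 2 also met the bins of Nkiras2, the gene of a Ras-like inhibitor of NF-κB signaling, and of Dnajc7, the gene of a co-chaperone. The bin that follows the Cnp TSS bin had 2 further interactions with this stretch, of 16 read pairs each, and the tallest Cnp peak of each replicate lay across the border between both bins. Nkiras2, 44.3 kb downstream with 388.0 and 375.2, lies between Cnp and Dhx58. The stretch over Dhx58 was thus in contact with Cnp and with its more strongly marked neighbor.

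**Figure D3:**
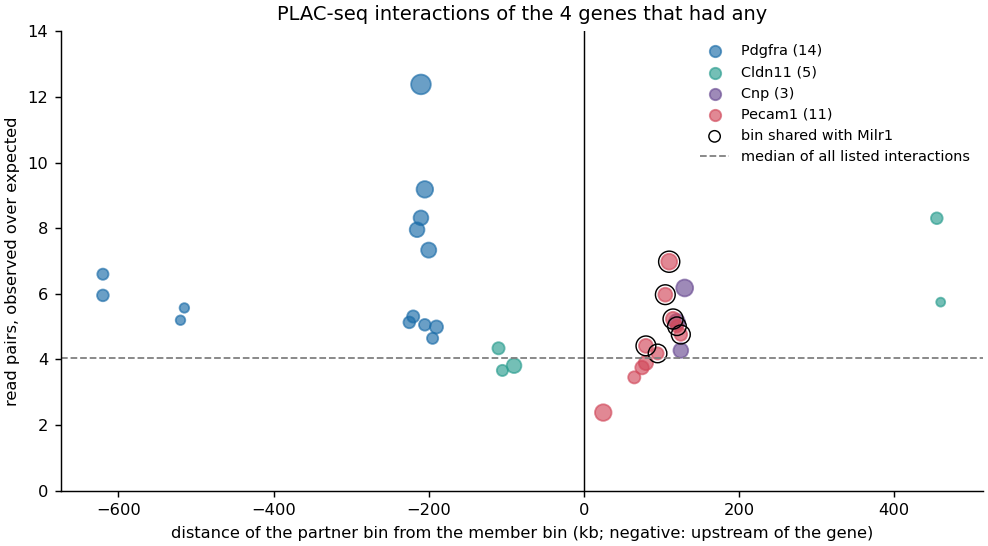
Distance from the TSS bin of the gene to its partner bin (x axis, kb, negative upstream of the gene) against read pairs observed over expected (y axis) for the 33 interactions of 4 genes, with point area proportional to the read pairs. Black rings mark the 7 Pecam1 interactions from the bin shared with Milr1 and the dashed line is the median of all interactions, 4.03. The 10 Pdgfra interactions at 190 to 225 kb reach up to 12.4-fold and the 4 unringed Pecam1 interactions lie below the line.

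Over the 33 interactions, H3K4me3 of both replicates lay in the bin of the gene for 29, and in both bins for 5. The 4 without it in the gene's bin also had none in the partner and were those of the main TSS of Pecam1. That bin was reached by a peak of 15.6 in replicate 1 and by none in replicate 2. By the authors' own marking of bins, all 33 had H3K4me3 in the bin of the gene. In the whole list, by the same criterion of peaks in both replicates, 9.43% of interactions had H3K4me3 in both bins and 15.8% in neither. Another protein-coding TSS lay in the gene's own bin for 7 and in the partner bin for 3, so that 10 of 33 could belong to another protein-coding gene and 23 could not by this criterion. In the whole list, 5.23% of interactions had protein-coding TSSs in both bins, as did 3 of the 33. Partner bins took part in other interactions in 14 of 33 cases, 7 of Pecam1, 3 of Pdgfra, 3 of Cnp and 1 of Cldn11. The share over the whole list was not counted, so nothing is read from this number.

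The 4 genes without an interaction lay under contacts that passed over them, Olig1 and Olig2 under the same ones. Of all autosomal protein-coding genes, 18.6% of those without an interaction and 65.1% of those with one lay under at least 1 listed interaction. Of the 4 genes with interactions, Cnp alone lay under another, of 17 read pairs (4.51-fold). At Olig1 and Olig2, which lie 44.3 kb apart, 7 interactions with 101 read pairs passed over both genes. All 7 left from 1 intergenic bin, chr16:91350001-91355000, 85 kb from the Olig1 bin, with H3K4me3 of 20.1 in replicate 2 and a like value in replicate 1. They ended 60 to 155 kb beyond Olig2 in intergenic sequence, an exon of Gm41492 and an intron of 4932438H23Rik, and the strongest had 24 read pairs against 1.99 expected (12.1-fold). The next marked gene, Ifnar2, the gene of a subunit of the type I interferon receptor, 103 kb from Olig1, had 300.7 and 383.4 and 16 interactions, none of them over Olig1 or Olig2.

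At Flt1, 9 interactions with 99 read pairs passed over the gene, from 4.34-fold to 8.99-fold. They joined the bin of the TSS of Pomp, the gene of a proteasome maturation factor, or intergenic bins next to it, 120 to 135 kb upstream of Flt1, to bins over Flt3, Gm29793 and D5Ertd605e 310 to 395 kb on the other side. Pomp had H3K4me3 of 331.1 and 381.9. Flt3, the gene of a cytokine receptor of blood cell precursors, had 27.3 and 12.7, and its only interaction was 1 of these 9. Pan3, the nearest marked gene downstream, had 353.7 and 404.3.

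At Kdr, 7 interactions with 68 read pairs passed over the gene, from 4.83-fold to 5.82-fold. They joined intergenic bins 95 to 115 kb downstream of its TSS bin to bins 155 to 165 kb upstream, the last of them with the TSS of Srd5a3, a gene of dolichol synthesis with 293.7 and 320.0. The nearest bins with any interaction were 95 and 155 kb from Kdr and 180 and 120 kb from Flt1. Neither gene gained an interaction when the bins on each side were included or when every annotated transcript was used. Absence from the list does not show that 2 bins lack contact.

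**Figure D4:**
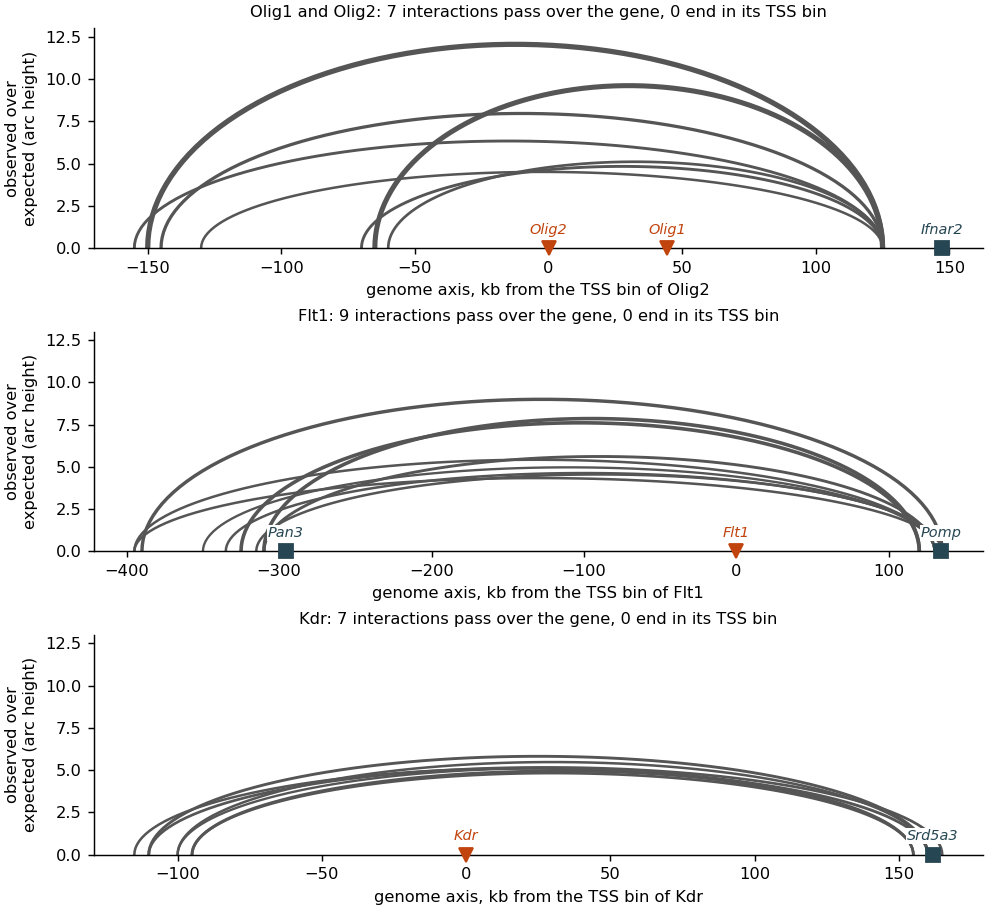
Interactions that pass over Olig2 and Olig1 (top), Flt1 (middle) and Kdr (bottom), drawn along the genome axis (kb from the TSS bin of Olig2, Flt1 or Kdr). Each arc joins 2 bins, its height is read pairs observed over expected and its width grows with the read pairs. Triangles are TSSs of the 8 genes and squares those of the marked neighbors Ifnar2, Pan3, Pomp and Srd5a3. The nearest marked genes on the other side of Olig2 (Paxbp1) and of Kdr (Pdgfra) are not drawn. No arc ends at a triangle.

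Most other genes of the same cell types were unmarked. Of 23 oligodendrocyte lineage genes, 9 were marked, 3 had a peak in 1 replicate and 11 had none. The marked share of all autosomal protein-coding genes was 59.4%. Leaving out the 5 examined here, 5 of 18 were marked. Mbp, the gene of myelin basic protein, had 162.8 and 210.3 and stood near Cnp. Myrf, a transcription factor of myelination, had 14.8 and 25.4, Nkx2-2 had 10.9 and 18.6, Mal had 10.9 and 10.4 and Vcan had 8.57 and 6.71. Mag and Nkx6-2 joined Olig1 with a peak in 1 replicate. Genes without a peak included the defining myelin gene Mog, the lineage factor Sox10, and Mobp, Opalin, Ermn, Aspa, Ugt8a, Cspg4, Gpr17 and Ptprz1.

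Of 18 endothelial genes, 6 were marked, beside 59.4% of all autosomal protein-coding genes. Cldn5 had a peak of 7.79 in replicate 1 alone and 11 genes had none. Beside the 3 genes examined here, 3 of 15 were marked. Eng, the gene of the TGF-β co-receptor endoglin, had 127.8 and 144.0, close to Kdr. Egfl7, a secreted factor of vessels, had 58.4 and 45.5, close to Flt1, and Abcb1a had 17.1 and 6.71. Cdh5, Tek, Tie1, Ly6c1, Slco1a4, Vwf, Emcn, Esam, Erg, Sox17 and Sox18 had no peak, so VE-cadherin (Cdh5) and the TIE receptors, which define endothelium, were without the mark. Summed over the whole list, H3K4me3 was 428.5 and 390.9 for endothelial genes (211.1 and 196.2 without the 3 genes examined here) and 426.1 and 448.1 for oligodendrocyte lineage genes (225.9 and 271.4 without the 5), against 2383 and 2328 for the 12 microglia genes. Of the sums without the examined genes, Eng made up most for endothelial genes. Mbp, with 162.8 and 210.3, made up most for oligodendrocyte lineage genes. Whether other cells in the sort had a part in the values of the 8 genes was not tested.

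Of the oligodendrocyte lineage genes 6 of 23 had an interaction (3 of 18 without the 5 examined here), and of the endothelial genes 3 of 18 (2 of 15 without the 3), beside the 24.7% of all autosomal protein-coding genes. Mbp, Mobp and Myrf had 1 each, and Egfl7 had 4, with Gm20532 in the same bin. Mobp and Cdh5, which had no mark, had their single interactions with bins that hold the TSSs of other genes, Gorasp1 and Ttc21a for Mobp and Cmtm3 for Cdh5. Among genes of these lists and of the mural, PDGF and VEGF lists with an interaction, Mbp was nearest to Cnp in H3K4me3, at a distance of 0.78 in log2 units over the 2 replicates, Vegfa was nearest to Flt1 (0.33) and Cnp to Kdr (0.10). Myrf was nearest to Pdgfra (0.82), Pgf to Olig2 (0.35) and to Pecam1 (0.41), and Pecam1 to Cldn11 (0.61).

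The ligand genes of these receptors are set beside them here. Of 6 PDGF ligands and receptors, 4 were marked, beside 59.4% of all autosomal protein-coding genes. The ligand genes Pdgfb, with 298.4 and 340.9, and Pdgfa, with 214.2 and 216.3, had higher values than Pdgfra in both replicates and 16 and 8 interactions, and Pdgfc had 125.4 and 129.8 and none. The second receptor gene, Pdgfrb, had a peak in replicate 2 alone, of 11.2, and Pdgfd had none. Pdgfra thus had the lowest value of the 4 marked genes and 14 interactions.

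Of 10 VEGF ligands and receptors, 9 were marked, all but the X-linked Vegfd, beside 59.4% of all autosomal protein-coding genes. The co-receptor genes Nrp1, with 201.8 and 237.9, and Nrp2, with 237.6 and 182.7, stood above Kdr and Flt1 and had 13 and 4 interactions. Among the ligands, Vegfb had 214.2 and 199.2 and no interaction, Vegfa had 60.8 and 65.6 and 6 interactions, and Pgf, a ligand of Flt1, had 12.5 and 13.4 and 2. Vegfc had 12.5 and 20.9 and none. The 3 tyrosine kinase receptors of this list, Flt1, Kdr and Flt4, had no interaction and both neuropilins had at least 4. Over all marked autosomal genes, 37.8% had an interaction. Flt1 and Kdr were among the chosen genes, so no contrast is read from these counts.

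Close relatives of the examined genes were marked in different ways. Of the 5 class III receptor tyrosine kinases, the family of Pdgfra, 3 were marked, beside 59.4% of all autosomal protein-coding genes. Csf1r, whose receptor keeps microglia alive, had 292.9 and 309.6 and no interaction, and Kit had no peak. Olig3, the third gene of the OLIG family, had no peak, so that of the 3 genes only Olig2 was marked in both replicates.

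**Figure D5:**
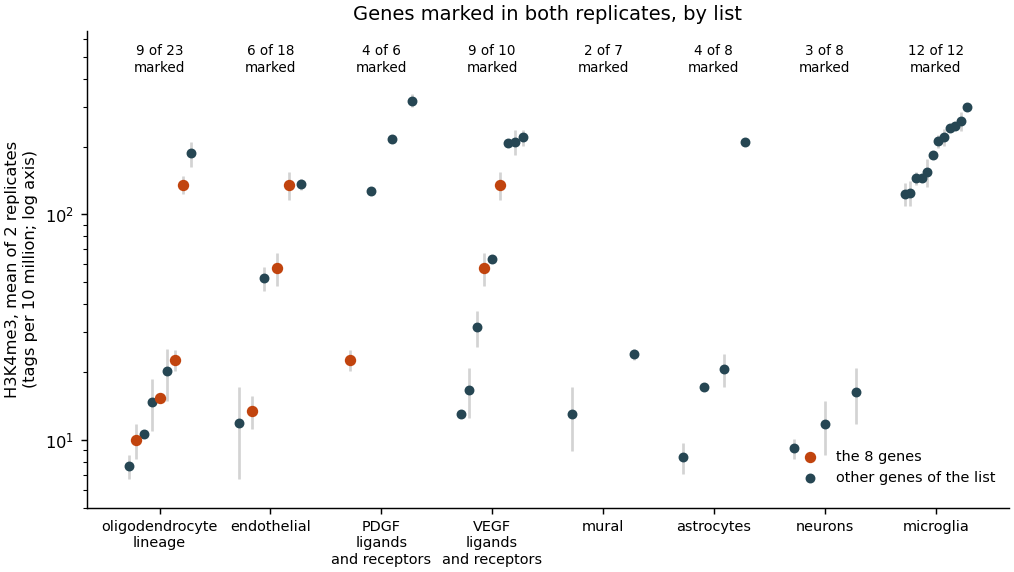
Mean H3K4me3 value of 2 replicates (y axis, tags per 10 M, log axis) for genes marked in both replicates, by list (x axis), with grey lines joining the 2 replicate values. Red points are the 7 of the 8 genes that were marked in both replicates, so Olig1 is not shown, dark points are other genes of the list, and the numbers at the top give the genes marked of all in the list. Cnp and Kdr lie within the range of the microglia genes (123.4 to 301.2), and Pdgfra, Olig2, Cldn11 and Pecam1 lie below it.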

How the data were processed

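The 8 genes and the gene lists were chosen with earlier results of these data known. For H3K4me3 ChIP-seq the authors deposited 1 peak list per library in the format of HOMER. Bowtie2, HOMER and mm10 stand in the submitters' processing notes. Per the file headers, the signal of a peak is in tags per 10 M, the tag count is a whole number, and the fold (a ratio), the p-value and the score are against input or as HOMER gives them. The deposited ratio of focused tags, a fraction, was not used. The input libraries carry other replicate numbers than the ChIP libraries and were used only as the authors' peak lists hold them. For PLAC-seq the authors deposited 1 list of MAPS interactions between 5 kb bins, with the read pair count, the expected count, a false discovery rate (an adjusted p-value) and a summed −log10 p-value per cluster, which was not used.

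Start sites came from protein-coding transcripts of the GENCODE M21 basic annotation of GRCm38. Peaks were matched within 1 kb of a TSS and interactions by bin, with pandas 2.3.3, numpy 2.4.6 and scipy 1.17.1. Counting intervals were exact Poisson for tags and exact binomial for replicate ratios, at 95%. No test across genes was made. Functions were tested on simulated data. Named genes were the 8 genes, genes with a TSS in their bins or partner bins, nearest marked neighbors and the genes of fixed lists. Other windows, TSS sets, replicates and thresholds were tried as alternatives.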

Additional observations from a re-analysis of the deposited data

How the results depend on the processing

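No paired analysis was possible because no groups were compared and no test was run. Of 53 alternative values for 9 counts, 45 stayed within 1.5 times the value given and 8 did not. Small counts had little room to move by this measure. A fall from 6 to 4 oligodendrocyte lineage genes with an interaction, at a false discovery rate of 0.0001, counted as within it. For the interaction counts of single genes, 35 alternative values stayed within it, the zeros of Olig1, Olig2, Flt1 and Kdr among them, and 13 did not. When the false discovery rate had to be 0.0001 or lower, the distinct interactions were 17 of the 33 and those with H3K4me3 in the gene's bin 17 of the 29. With at least 20 read pairs, 7 of 33 interactions were left, 2 oligodendrocyte lineage genes had an interaction in place of 6, and Cldn11 had none. With only the summit of each cluster, 7 were left, 6 of them with H3K4me3 in the gene's bin, since in 2 of the 9 clusters the summit lay in other bins. With 1 bin on each side of the TSS bin, 6 endothelial genes had an interaction in place of 3. With genes of every biotype, 23 of 33 interactions had another TSS in a bin, in place of 10. Without 1 replicate, 7 to 8 of the 8 genes, 10 to 11 oligodendrocyte lineage genes and 6 to 7 endothelial genes were marked, and 29 to 33 interactions had H3K4me3 in the gene's bin. Olig1 was the gene added without replicate 1. A window of 500 bp removed Pecam1, and a fold over input of at least 10 removed Cldn11. Olig1, Olig2, Flt1 and Kdr had 0 interactions in every setting run. Tag counts of 8 to 32 at the weakly marked genes limit what their values can show.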

Other observations

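Lists of other brain cells are set here beside the 59.4% of all autosomal protein-coding genes that were marked. Of 8 astrocyte genes, 4 were marked, Slc1a3, a glutamate transporter gene, with 204.9 and 212.6 tags per 10 M, Aldh1l1 with 17.1 and 23.9, Gja1 with 17.9 and 16.4 and Slc1a2 with 7.01 and 9.70. Gfap, Aqp4, Aldoc and Sox9 had no peak, and Gfap had 1 interaction of 32 read pairs (5.87-fold) at 95 kb. Of 8 neuronal genes, 3 were marked, Tubb3 with 11.7 and 20.9, Slc17a7 with 8.57 and 14.9 and Snap25 with 10.1 and 8.21, while Rbfox3, Syt1 and Stmn2 had a peak in 1 replicate and Gad1 and Gad2 in none. Of 7 mural cell genes, Anpep (22.6 and 25.4) and Kcnj8 (17.1 and 8.95) were marked, Acta2 and Pdgfrb had a peak in 1 replicate, and no mural gene had an interaction.

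Promoter CpG content was also counted by list. The 9 microglia genes with a RefSeq window had a median of 5 CpGs per 300 bases, from 1 to 39. The 7 marked oligodendrocyte lineage genes with a window had a median of 17 (5 to 25) and the 5 marked endothelial genes 19 (2 to 31). The 8 unmarked oligodendrocyte lineage genes had a median of 5 (2 to 40) and the 6 unmarked endothelial genes 2.5 (1 to 16). The ranges of marked and unmarked genes thus overlapped in both lists. At these small numbers the counts are a description only.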
